A study of Mus musculus with 6 samples.

Results

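MHC class I molecules are made of a heavy chain, which differs from gene to gene, and a shared light chain, beta-2-microglobulin, the product of B2m. The 7 genes described here are B2m and 6 heavy chain genes, H2-D1, H2-K1, H2-T22, H2-M3, H2-T23 and H2-Q4. They were taken by gene symbol, and all 7 had a row among the 24181 genes of the deposited count table. RNA of MC38, a mouse cell line from a colon adenocarcinoma, cultured in DMEM, was sequenced in bulk from transcript 3' ends, in 2 groups of 3 samples. One group is the parental line, named wild type in the annotation deposited with the count table. The other expresses STING-N153S, a mutant form of STING, the adaptor between cytosolic DNA sensing and interferon and NF-kB signalling. The columns of the STING-N153S samples could not be told from their names and were not analysed here, so every value below is from the 3 parental libraries and no difference between the groups is given.

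Heavy chains fold in the endoplasmic reticulum together with the light chain and, in most cases, a short peptide, and only the complete complex is carried to the cell surface. H2-D1 and H2-K1 encode the classical chains, which show peptides from inside the cell to cytotoxic T cells. H2-T23 encodes Qa-1, which shows leader peptides of other class I chains to receptors of NK cells. H2-M3 presents peptides that start with N-formylmethionine, and H2-T22 encodes a chain recognised by gamma delta T cells that is displayed without a peptide. H2-Q4 is a further non-classical chain of the Q region. In many cell types interferons and NF-kB raise the transcription of class I genes through short elements close to their start sites.

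In GENCODE M21 on GRCm38, B2m lies on chromosome 2, from 122147686 to 122153083 on the plus strand. The 6 heavy chain genes lie on chromosome 17. H2-K1 runs from 33996017 to 34000347 on the minus strand and H2-D1 from 35262730 to 35267499 on the plus strand. H2-Q4 runs from 35379617 to 35385290 on the plus strand, H2-T23 from 36029773 to 36032855 and H2-T22 from 36037128 to 36042747, both on the minus strand, and H2-M3 from 37270220 to 37274484 on the plus strand. All 7 are annotated as protein coding, and the coding transcripts used below have between 4 exons (B2m) and 9 exons (H2-T22). An antisense gene, A930015D03Rik, overlaps H2-T22 and H2-T23 and had 1, 2 and 0 counts in replicates 1 to 3. Another, Gm11131, overlaps H2-Q4 and had 0, 0 and 1 counts, and Patl2 on the other strand overlaps B2m and was not analysed here.

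The promoters of the members are shown because elements of the kind named above were searched for in them. Whether such elements bear on the levels was not tested. Sequences are RefSeq promoters on GRCm38.p6, read 5′ to 3′ in the direction of the gene, with chosen motif matches in capitals. The motifs searched, on both strands and in the 250 bases before each start, were 2 interferon-type pairs, an NF-kB-type sequence, the CRE-like TGACG and the CCAAT box, CCAAT. Capitals below mark the pairs and the NF-kB-type sequence only. The wide pair was GAAA, any 2 bases and GAAA again, and the narrow pair was GAANNGAAA. The NF-kB-type sequence was GATTCCCC, and its full form was the same letters with the GGG that precedes them in H2-D1. The shorter one thus overlaps the full one. Only these exact letters were searched, so other forms of an NF-kB site were not looked for. The aligned 30 bases of H2-D1 (chr17:35262923-35262952, plus strand), H2-K1 (chr17:34000429-34000458, minus strand) and H2-Q4 (chr17:35379443-35379472, plus strand) were as follows.
H2-D1: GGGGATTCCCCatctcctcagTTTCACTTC
H2-K1: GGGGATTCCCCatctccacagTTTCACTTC
H2-Q4: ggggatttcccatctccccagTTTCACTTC
Counted from 1 at the 5′ end, H2-D1 and H2-K1 were the same at 29 of 30 positions and differed by T18A. H2-D1 and H2-Q4 were the same at 28 positions and differed by C8T and T18C, and the first of these lies in the NF-kB-type sequence. In GENCODE M21 the H2-D1 stretch, and that of H2-T23 printed further on, overlap an annotated exon of the gene. The RefSeq starts used here lie downstream of these stretches.

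Of 32851 promoter windows of the same length, 10 held the full NF-kB-type sequence (0.0304%), and 2 of the 7 members, H2-D1 and H2-K1, did. The full form was taken from H2-D1, so its match there was fixed in advance and the 2 members are no measure of enrichment. GATTCCCC was in 0.752% of windows and in 3 members, H2-D1, H2-K1 and H2-M3. The narrow pair was in 6.31% of windows and in 4 members, H2-D1, H2-K1, H2-M3 and H2-Q4. The wide pair was in 2.98% of windows and in the other 3, B2m, H2-T22 and H2-T23. TGACG was in 17.8% of windows and in 6 members, all but H2-T23, and CCAAT was in 33.8% of windows and in all 7. Each member thus held 1 of the 2 interferon-type pairs in this window. The stretches around them in B2m (chr2:122147518-122147592, plus strand), H2-M3 (chr17:37270103-37270177, plus strand), H2-T22 (chr17:36042889-36042963, minus strand) and H2-T23 (chr17:36032816-36032845, minus strand) were as follows.
B2m: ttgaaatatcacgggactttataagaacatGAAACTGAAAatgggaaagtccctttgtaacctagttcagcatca
H2-M3: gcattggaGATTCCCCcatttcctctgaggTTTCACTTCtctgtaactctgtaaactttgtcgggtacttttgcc
H2-T22: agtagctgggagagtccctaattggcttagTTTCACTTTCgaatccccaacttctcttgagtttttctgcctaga
H2-T23: atgaaaagggatcctactgcTTTCTCTTTC
These matches describe letters and do not show that a factor was bound.

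Library totals were 3358908 counts in parental replicate 1, 4020023 in replicate 2 and 3210024 in replicate 3. Levels are CPM, counts scaled to the library total, and 1 count was worth between 0.249 and 0.312 CPM. A 3'-end protocol reads the end of each transcript, so CPM was not divided by gene length when genes were compared. Replicate 3 stood farthest from the others in 192 of the 311 genes that varied between the libraries, so values without it are given where they differ. The deposited annotation names the parental samples WT-BR1, WT-BR2 and WT-BR3. The labels do not otherwise say whether they came from separate cultures, and the spread between them may be technical. Of 12 intestinal epithelial markers, 6 were analysed, and their summed level was 0 to 0.595 CPM, although the line is labelled as colon adenocarcinoma. Of 13 leukocyte markers, 7 were analysed with a summed level of 22.6 to 23.99 CPM, of which Cd14 made up 22.1 CPM on average, and the pan-leukocyte gene Ptprc had 1 count in all. All 8 mesenchymal markers were analysed and summed to 3636 to 4034 CPM, mostly Vim with a mean of 3058 CPM. Of the 8, 6 reached 1 CPM, with a list median of 39.0 CPM, while Col1a2 and Pdgfrb had means of 0.991 and 0.667 CPM. Between the libraries, 1 of 6 tested varied, Vim, against 2.80% of all genes tested, and without replicate 3 it was 0 of 6.

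B2m was the highest of the 7 genes. It stood at 393, 408 and 395 CPM in replicates 1 to 3, or 399 ± 7.95 CPM (SD, n = 3), from 1321, 1640 and 1269 counts. The 3 libraries lay within 1.04-fold of each other. In RNA from a whole culture, a low level in every cell cannot be told apart from a high level in few cells. B2m ranked 478th by mean CPM and stood above 97.6% of the 19798 genes with at least 1 count.

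The classical heavy chains came next and were far apart. H2-D1 stood at 330.2, 316 and 301 CPM, or 316 ± 14.6 CPM (SD, n = 3), and ranked 610th of all genes. H2-K1 stood at 45.8, 65.2 and 56.7 CPM, or 55.9 ± 9.69 CPM (SD, n = 3), and ranked 3271st. The lowest H2-D1 library was above the highest H2-K1 library, and the ranges of B2m and H2-D1 did not overlap either. H2-D1 was highest in replicate 1, the library in which H2-K1 was lowest. The ratio of their counts was 7.20 in replicate 1, with an exact 95% interval of 6.08 to 8.58. It was 4.85 in replicate 2, with an interval of 4.24 to 5.56, and 5.31 in replicate 3, with an interval of 4.53 to 6.25. The interval of replicate 1 lay above that of replicate 2 and overlapped that of replicate 3. These intervals are Clopper-Pearson intervals and cover counting error only.

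The non-classical chains were counted at lower levels. H2-T22 was the third heavy chain, with 21.7, 23.4 and 23.99 CPM, or 23.03 ± 1.17 CPM (SD, n = 3), and its highest library was below the lowest of H2-K1. H2-M3 had 7.44, 7.71 and 9.03 CPM, or 8.06 ± 0.85 CPM (SD, n = 3), and did not overlap H2-T22. The count of H2-T22 was 2.87 ± 0.19 times that of H2-M3 (SD, n = 3). Both genes were at similar levels in the 3 libraries, with the highest 1.10 times the lowest for H2-T22 and 1.21 times for H2-M3.

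H2-T23 and H2-Q4 were close to the limit of detection. H2-T23 had 7, 4 and 0 counts, or 2.08, 0.995 and 0 CPM, and the count of 0 in replicate 3 allows up to 0.935 CPM by a floor of 3 counts. Its mean of 1.03 ± 1.04 CPM (SD, n = 3) was 1.54 CPM without replicate 3 and 0.498 CPM without replicate 1. H2-Q4 had 2, 1 and 2 counts, or 0.595, 0.249 and 0.623 CPM, and over the pooled libraries its exact Poisson 95% interval was 0.153 to 1.10 CPM. That of H2-T23 was 0.519 to 1.86 CPM. The ranges of these 2 genes overlapped, and they were the only neighbours in the order of the 7 members that did. H2-M3 had more counts than H2-T23 in 3 of 3 libraries.

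**Figure D1:**
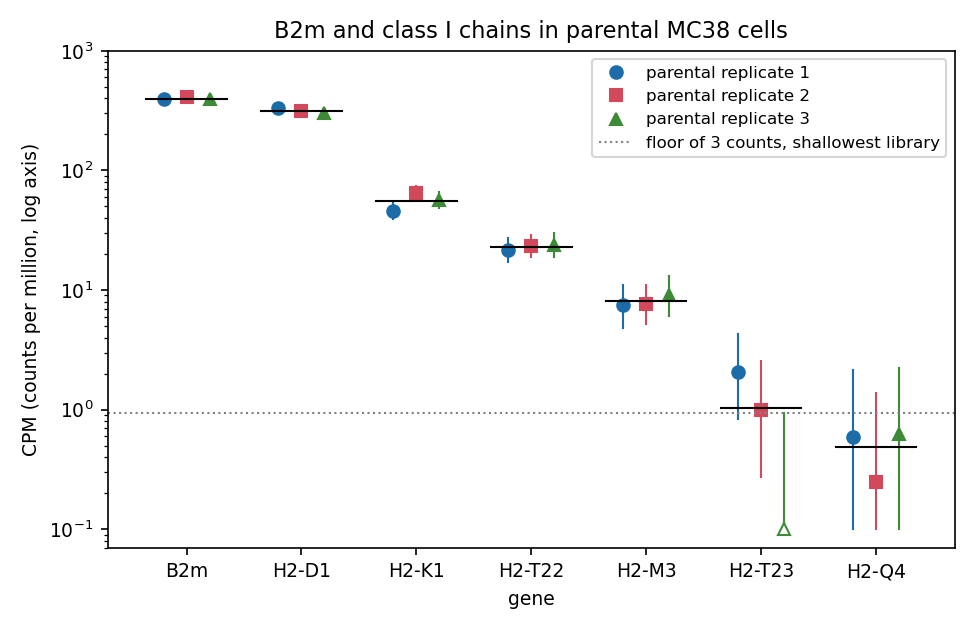
CPM of the 7 genes (log axis) in parental replicates 1 to 3, with exact Poisson 95% intervals as vertical lines (counting error only), the mean of the 3 libraries as a horizontal line, and the floor of 3 counts in the shallowest library as a dotted line. The open triangle at the bottom is the count of 0 for H2-T23 in replicate 3, with a line up to its floor of 0.935 CPM, and the lines of H2-Q4 are cut at the height of that triangle. B2m and H2-D1 sit above 300 CPM, H2-K1 and H2-T22 between 21.7 and 65.2 CPM, and H2-T23 and H2-Q4 overlap around the floor.

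The light chain and the summed heavy chains were counted almost equally. The 6 heavy chain members together had 1370, 1662 and 1256 counts, or 408, 413 and 391 CPM, beside 393, 408 and 395 CPM of B2m. B2m over the summed heavy chains was 0.964, 0.987 and 1.01 in replicates 1 to 3, or 0.987 ± 0.023 (SD, n = 3). The ratio was below 1 in replicates 1 and 2 and above 1 in replicate 3. Its exact 95% interval over the pooled counts was 0.945 to 1.03, which includes 1. Against H2-D1 alone, B2m was 1.19, 1.29 and 1.31 times as high, or 1.27 ± 0.065 (SD, n = 3), and above it in 3 of 3 libraries. All 7 members together summed to 803 ± 17.5 CPM (SD, n = 3).

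H2-D1 supplied most of the heavy chain counts. Its share of the 6 members was 80.9%, 76.4% and 76.9% in replicates 1 to 3, or 78.1% ± 2.49 (SD, n = 3). H2-K1 supplied 11.2%, 15.8% and 14.5%, or 13.8% ± 2.33 (SD, n = 3), so that replicate 1 was the highest for H2-D1 and the lowest for H2-K1. H2-T22 supplied 5.70% ± 0.40 and H2-M3 2.00% ± 0.27 (SD, n = 3). Over the pooled 4288 counts, H2-T23 supplied 0.257%, with an exact 95% interval of 0.128% to 0.459%. H2-Q4 supplied 0.117%, with an interval of 0.0379% to 0.272%.

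**Figure D2:**
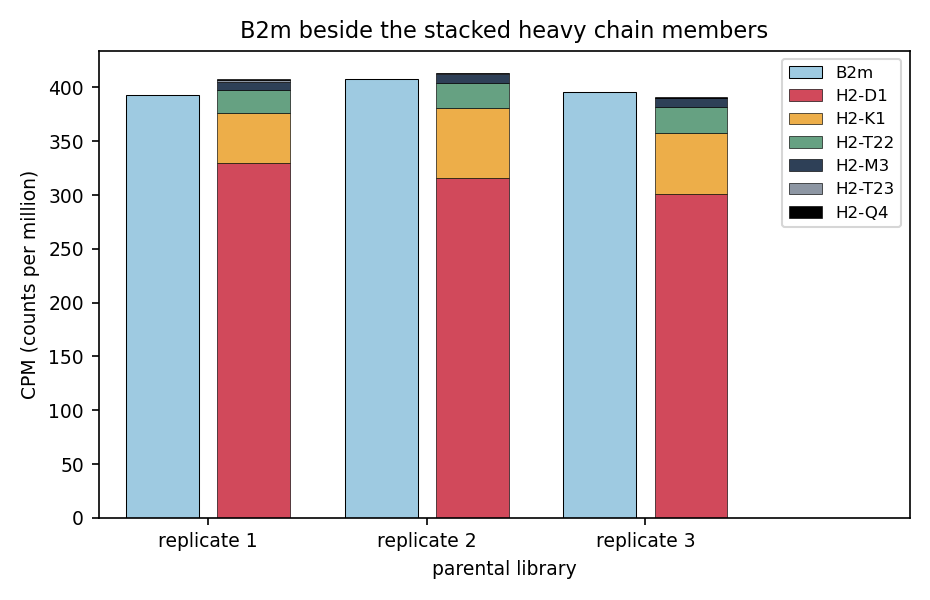
CPM of B2m (left bar of each pair) beside the stacked CPM of the 6 heavy chain members (right bar) in each parental library. The bars of a pair are nearly the same height, with 393 against 408 CPM in replicate 1 and 395 against 391 CPM in replicate 3, and H2-D1 fills most of the right bar.

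Variation between the parental libraries was then tested, which compares libraries and not conditions. In a chi-square test of counts over all genes with Benjamini-Hochberg adjustment, 311 of 11118 genes tested (2.80%) varied beyond counting noise at an adjusted p below 0.05. Without replicate 3, the count was 61 of 11126 genes (0.548%). Of the 7 members, 5 had enough counts for the test and 0 varied, and 1 of the 5 had an unadjusted p below 0.05, against 13.2% of all genes tested. With so few members these counts do not set them apart from other genes. That member was H2-K1, with an adjusted p of 0.0934 and a 1.42-fold range between replicates 1 and 2. The adjusted p was 0.457 for H2-D1, 0.927 for B2m, 0.932 for H2-M3 and 0.962 for H2-T22. Without replicate 3, the adjusted p of H2-K1 was 0.0965, and without replicate 1 it was 0.632. H2-T23 and H2-Q4 entered the test at a minimum expected count of 1 and had adjusted p-values of 0.363 and 0.932.

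**Figure D3:**
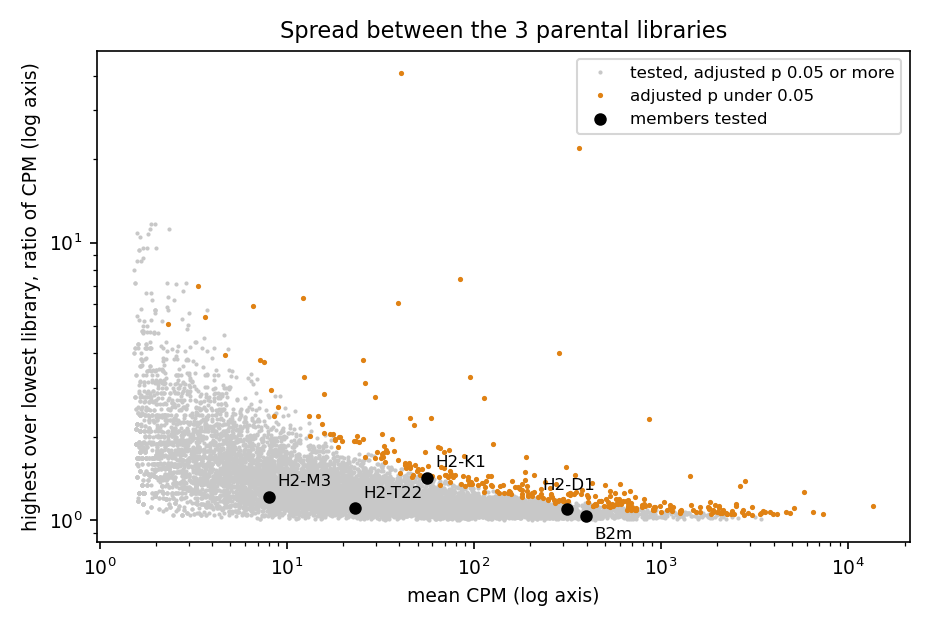
Ratio of the highest to the lowest parental library (log axis) against mean CPM (log axis) for each gene tested with a count in every library, in orange where the adjusted p was below 0.05. The 5 members tested are in black, and H2-K1 has the widest range of them, at 1.42-fold.

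Class I chains resemble each other in sequence, and the treatment of reads with several matching genes was not given in the sources used here. The ends of the members' transcripts in GENCODE M21 were therefore compared with all other annotated transcripts, as exact words of 50 bases in the last 300 bases. All 251 words of B2m and of H2-M3 were found in no other gene. H2-K1 had 249 such words (99.2%), and its other 2 were shared with H2-D1. H2-D1 had 208 (82.9%), and its shared words were spread over 80 other genes, with 2 of the words in H2-K1. Thus 0.797% of the words at the end of either classical chain were found in the other one.

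The ends of H2-T22, H2-T23 and H2-Q4 were less distinct. H2-T22 had 127 words of its own (50.6%), and the other 124 were all shared with H2-T10, a polymorphic pseudogene in this annotation. H2-T10 itself had 5, 2 and 3 counts, and the pooled count of H2-T22 was 24.4 times higher, with an exact 95% interval of 13.04 to 51.5. H2-T23 had 124 words of its own (49.4%), with the others spread over 75 genes, and H2-Q4 had 137 (54.6%), with the others spread over 52. The counts of these 3 genes are uncertain for that reason, and those of H2-D1 to a lesser degree. At words of 75 bases, H2-D1 and H2-K1 shared none with another gene, and the distinct share was 74.3% for H2-T22, 71.2% for H2-T23 and 79.6% for H2-Q4. The read length was not given in the sources used here, and exact words do not cover reads aligned with mismatches.

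**Figure D4:**
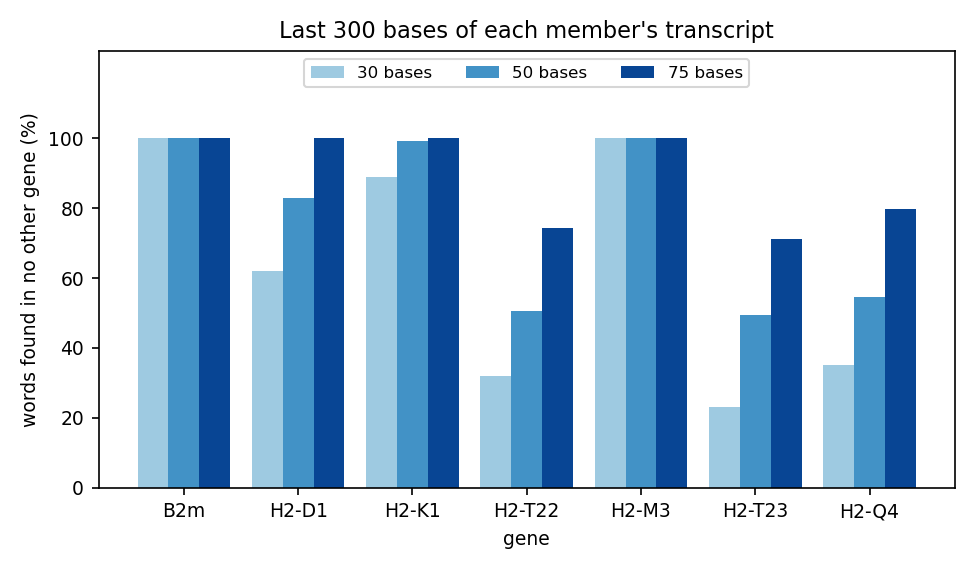
Share of the words in the last 300 bases of each member's transcript that occur in no other annotated gene, in percent, for words of 30, 50 and 75 bases. B2m and H2-M3 reach 100% at every length, H2-K1 and H2-D1 reach 100% at 75 bases, and H2-T22, H2-T23 and H2-Q4 stay below 80%.

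Other class I genes were counted little. Of 28 classical and non-classical class I chains listed, B2m and the members included, 14 were analysed, and mean levels reached 1 CPM in 6, 10 CPM in 4 and 100 CPM in 2. All 6 were among the 7 members, which were chosen with earlier results of these data known. The lowest of the 6, H2-T23 at 1.03 CPM, was close to H2-T10, which is not a member. H2-T10 and H2-K2 were above the member H2-Q4 in mean CPM. The median of the 14 analysed was 0.731 CPM, against 0.941 CPM over all 24181 genes. Those outside the members ranged up to the 0.974 ± 0.497 CPM of H2-T10 (SD, n = 3), and H2-Q7 and H2-M10.1 had 0 counts. The pseudogene H2-K2 had 5, 2 and 2 counts. Of 18 class I-like genes listed, 9 were analysed and 6 reached 1 CPM, with a list median of 3.04 CPM. The highest were the stress ligand gene Raet1e, with 28.4 ± 1.16 CPM, Procr, the protein C receptor, with 28.1 ± 1.63 CPM, and Ulbp1, another stress ligand gene, with 16.6 ± 2.07 CPM (SD, n = 3). Raet1e and Procr were thus above H2-T22 in mean CPM. Of the class I-like genes tested, 0 of 6 varied between the libraries, against 2.80% of all genes tested, which does not set them apart.

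Genes that act with the members in the pathway were counted more widely. All 13 peptide loading genes reached 1 CPM and 10 reached 10 CPM, with a median of 64.6 CPM, and 2 of 13 tested, Calr and Canx, varied between the libraries, against 2.80% of all genes. Without replicate 3 or without replicate 1, 1 of 13 varied, which was Calr, and without replicate 2 it was 0 of 13. The list was led by general chaperones of the endoplasmic reticulum, Hspa5 (1459.8 CPM on average), Pdia3 (905 CPM) and Canx (688 CPM). B2m had 0.441 ± 0.014 times the count of Pdia3 (SD, n = 3). The peptide transporter genes were low beside them, with 5.50 ± 0.91 CPM of Tap1 and 9.03 ± 0.74 CPM of Tap2 (SD, n = 3). All 5 immunoproteasome and PA28 genes reached 1 CPM, with a median of 91.2 CPM, led by Psme2 (162 ± 14.1 CPM; SD, n = 3), Psmb8 (102 CPM) and Psme1 (91.2 CPM). Between the libraries 0 of 5 varied, against 2.80% of all genes tested. Psmb9, an immunoproteasome subunit gene, was far below the others, with 5, 10 and 2 counts, or 1.53 ± 0.93 CPM (SD, n = 3).

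Of 18 genes of class I transcription listed, 16 were analysed and 15 reached 1 CPM, with a median of 13.02 CPM. Between the libraries 0 of 15 tested varied, against 2.80% of all genes tested. The NF-kB subunit Rela, at 113 ± 6.47 CPM, the X box factor subunit Rfxap, at 71.7 ± 2.27 CPM, and the CCAAT-binding subunit Nfyb, at 54.4 ± 3.88 CPM, were the highest (SD, n = 3). The transactivator Nlrc5 had 0 counts, which allows up to 0.283 CPM over the 3 libraries. Of 8 immune cell receptor genes listed, most of them receptors of class I, 5 were analysed. Klrd1, Klra1, Cd8a and Pirb, 4 of the 5, had 0 counts. The exception was Pilra, which is not a receptor of class I, with 1, 0 and 1 counts. Of 9 class II genes, 6 were analysed and 2 reached 1 CPM, with a list median of 0.236 CPM. These were H2-DMb1 and H2-DMa, which edit the peptides of class II, while Cd74 had 0.390 ± 0.203 CPM (SD, n = 3) and the class II chain genes H2-Aa and H2-Ab1 had 0 counts.

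The genes nearest in level to each member were found by the Euclidean distance of log2(CPM + 1) over the 3 libraries. They describe level, over 3 libraries of 1 group. For B2m they were Timm17a (distance 0.013) and Snrpg (0.014), and for H2-D1 Mtch2 (0.040) and Sars (0.047). For H2-K1 they were Dapk3 (0.083) and Usp5 (0.099), for H2-T22 Stx16 (0.015) and Pdlim1 (0.039), and for H2-M3 Efcab11 (0.061) and Dusp4 (0.078). Dapk3 and Usp5 were, as H2-K1, lowest in replicate 1 and highest in replicate 2, which a choice by distance over the same libraries favours. For H2-T23 they were Rtraf-ps (0.242) and Serpinb1a (0.321), and 11 genes had the same counts as H2-Q4 in every library, among them Abhd18 and Acsm3.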

How the data were processed

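The authors deposited whole counts per gene from SCRB-Seq libraries, aligned without trimming to GRCm38 with GENCODE M25, per the file headers. The headers name Drop-seq tools 1.12, Picard 2.18.26 and STAR 2.7.5b. Collapsing by molecular identifier was not given in the sources used here, and intervals and floors cover counting error only. The 3 columns named wild type were taken as the parental samples by their genotype and replicate number. The other 6 columns, in 2 sets, were not used, because the labels have 3 STING-N153S samples and do not say which set they are. The planned edgeR comparison was therefore not run.

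CPM were computed from library totals. The chi-square test used expected counts scaled by median ratios, at least 5 in every library. It was run on simulated counts with counting noise only, which cannot show how it behaves on libraries with further spread. Scalings came from edgeR 4.0.16 and DESeq2 1.42.0 in R 4.3.3; other steps used Python 3.11.15, scipy 1.17.1 and pandas 2.3.3. Members and lists were chosen with earlier results of these data known. Named genes are the members, the highest of each list and the 2 nearest in level to each member; Tap1, Tap2, Psmb9 and other genes at low counts were added after their values were seen. Promoters are from RefSeq, where all 7 members matched, with the most downstream start of each gene. Transcript ends are those of the principal coding transcript in GENCODE M21, which is not the release the authors used.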

Additional observations from a re-analysis of the deposited data

How the results depend on the processing

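Scaling by TMM, DESeq2 size factors or upper quartiles moved none of the 21 mean levels of the members by 1 SD. The factors lay between 0.984 and 1.02, so this does not show that the levels are stable. The sum of the 7 members ran from 794 to 811 CPM when 1 library was left out. In the same way B2m over the summed heavy chains ran from 0.975 to 0.999, B2m over H2-D1 from 1.24 to 1.30 and H2-D1 over H2-K1 from 5.08 to 6.25. The share of H2-D1 ran from 76.7% to 78.9%, and was 64.7% with all listed class I and class I-like genes in the denominator. The genes with the highest levels added there were Raet1e, Procr and Ulbp1, so 64.7% is not a share of class I heavy chains alone. Leaving out 1 library gave 61 to 274 varying genes, with 61 without parental replicate 3. Other settings of scaling and filter gave 274 to 327. Under each of the 6 settings 0 members varied, against 0.548% to 3.81% of all genes tested. With 5 to 7 members tested, these counts do not set them apart from other genes. Canx no longer varied with library totals or at a minimum expected count of 1, and Calr did. The settings for the members, the lists and the transcript ends were chosen after seeing the data. At 30 bases the distinct words fell to 32.1% for H2-T22, 23.2% for H2-T23 and 35.1% for H2-Q4. They also fell to 62.0% for H2-D1 and 88.9% for H2-K1, and stayed at 100% for B2m. Ratios and shares that use H2-D1 or H2-K1 carry that limit too. No paired analysis was possible because the parental libraries had no second group beside them here. The settings planned for the comparison with STING-N153S were not run. Depth limits H2-T23 and H2-Q4, with 11 and 5 counts in all.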
